A study of Mus musculus with 6 samples.

Results

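The genes described here are those of the cytosolic ribosomal proteins, the protein subunits of the ribosome that translates nuclear messages. They were chosen by symbol from the RNA-seq count table: Rps or Rpl followed by a number with at most 1 letter, Rplp0 to Rplp2, and Rpsa. The rule took 82 of 35275 gene IDs, of which 32 belong to the small (40S) subunit and 50 to the large (60S) subunit. It uses symbols alone, but it was chosen with earlier results of these data known. Rpl12 is described apart from the others, a choice made after its values were known.

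A ribosome holds 1 copy of most of these proteins, which assemble on ribosomal RNA in the nucleolus and cytoplasm. Their mRNAs are abundant in dividing cells, and most begin with a run of pyrimidines, the 5′ terminal oligopyrimidine (TOP) tract, through which mTOR signalling sets their translation. Ribosomal proteins that are left unassembled are degraded, and some of them bind MDM2 and so stabilise p53. In the pigment field they are known from mice with reduced dosage of certain ribosomal proteins, whose dark skin comes from p53 activation in keratinocytes, the neighbours of melanocytes.

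RNA was taken from Melb-a cells, an immortal melanoblast line from the skin of C57BL/6J mice, so that all libraries come from 1 line. The treated cells received 10 µM iBRD9, an inhibitor of the bromodomain of the SWI/SNF subunit BRD9, for 48 h (n = 3). The control cells received the solvent DMSO for 48 h (n = 3). Both groups were in the same medium during this time, DMEM with 10% serum, 2 nM NDP-α-MSH and 200 nM of the phorbol ester PMA, which brings on melanocyte differentiation. The series' design text calls the 3 samples of each group independent, without saying whether that means separate cultures or days, so p-values measure the spread between these samples. The comparison asks how iBRD9 changes transcript levels during differentiation.

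The iBRD9 libraries held 29680952, 24134176 and 22846391 counts, and the DMSO libraries 23248475, 26675006 and 24986925. Replicate 1 of DMSO stood apart from the other DMSO libraries: the chi-square per degree of freedom of their counts was 29.2 and 37.5, against 3.06 between DMSO replicates 2 and 3. Replicate 1 of iBRD9 differed from its group too, though by less, with 6.33 to each of the others against 1.93 between iBRD9 replicates 2 and 3. Melanocyte lineage markers summed to 14732 to 16227 CPM (read counts scaled to a common library size) with iBRD9 and 15314 to 17573 with DMSO, but 4 of the 7 were called lower with iBRD9, Tyr (log2 fold change -2.61), Sox10 (-0.92), Tyrp1 (-0.66) and Mlana (-0.62), and Dct was called higher (0.31). Keratinocyte markers stayed at or below 4.35 CPM in every library, with Krt5 and Krt1 at 0. Of the fibroblast markers, Dcn and Col1a1 were higher with iBRD9 and Col1a2 lower, and the whole list summed to 130.8 to 144.6 CPM with iBRD9 and 75.2 to 99.7 CPM with DMSO. Most of the fibroblast sum was Dcn, at 120.5 ± 7.09 CPM with iBRD9 and 51.2 ± 7.38 CPM with DMSO (SD, n = 3 each). Endothelial markers summed to 4.42 to 6.16 CPM with iBRD9 and 1.46 to 1.60 CPM with DMSO. Of these 4 genes only Kdr had enough counts to be tested. It made up most of the sum, at 3.98 ± 1.01 CPM with iBRD9 and 0.941 ± 0.157 CPM with DMSO. Immune markers, with Ptprc and Cd3e at 0, summed to 15.1 to 16.1 CPM with iBRD9 and 17.5 to 22.6 CPM with DMSO. The part of these marker lists in the results was not tested. Transcripts of Brd9 itself, whose protein the inhibitor binds, were at 38.8 ± 0.0510 CPM with iBRD9 and 37.4 ± 4.07 CPM with DMSO (SD, n = 3 each; log2 fold change 0.05, adjusted p = 0.624, edgeR).

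Most ribosomal protein transcripts that moved were lower with iBRD9. Of the 82 members, 77 had enough counts to be tested, and edgeR's quasi-likelihood test at an adjusted p under 0.05 called 42 lower and 6 higher, while 29 did not pass. Among all 13602 tested genes the same test called 30.9% lower and 29.8% higher, 60.7% in all. Of the tested members 54.5% were called lower and 7.79% higher. The median log2 fold change (iBRD9 over DMSO) was -0.26 over all tested members and -0.27 without Rpl12, beside 0.01 over all tested genes. In bulk RNA scaled to CPM, fewer cells of a type and less RNA per cell cannot be told apart, nor can a fall of these transcripts from a rise of others.

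The falls ran from 40.3% lower (Rpsa) to 13.0% lower (Rpl23), with standard errors of 0.0542 to 0.140 on the log2 scale. There were 8 members lower by at least 1.5-fold, among them Rpsa, Rps9, Rps4x, Rps3, Rps16, Rpl10 and Rpl13a, and Rpl12 was the 1 member higher by as much. The libraries of the groups did not overlap for 51 members, 45 of them lower and 6 higher with iBRD9, where 68.0% of all tested genes did not overlap, 34.1% lower and 33.9% higher. Because abundant genes leaned towards lower values as a whole, the members were also set beside the 1996 tested genes whose log2 CPM averaged 7 or more, of which 44.3% were called lower and 24.0% higher, 68.4% in all. At that level stood 62 members other than Rpl12, of which 42 were called lower and 4 higher, with a median log2 fold change of -0.34, beside -0.12 for the 1933 other genes at that level.

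**Figure D1:**
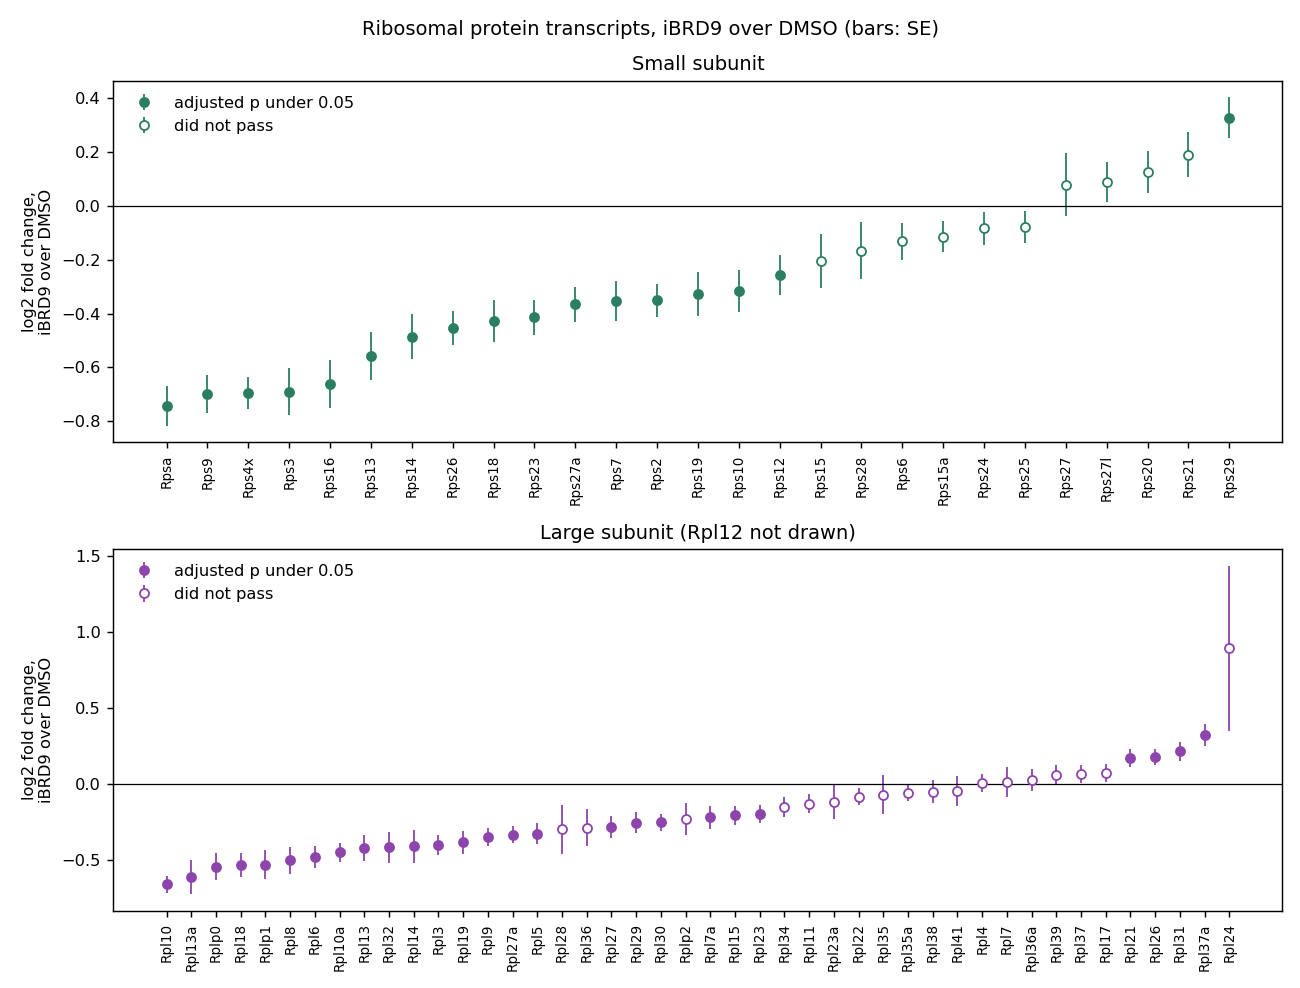
Log2 fold change (iBRD9 over DMSO) of the tested ribosomal protein transcripts named in the text other than Rpl12, small subunit above and large subunit below, with the standard error as bars; filled points passed an adjusted p under 0.05 and open points did not. Most filled points lie below 0, down to -0.74 for Rpsa, and the called rises reach 0.33.

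DMSO replicate 1 lay on the side of the iBRD9 libraries for most members. It was below DMSO replicates 2 and 3 for 39 of the 42 members called lower, and for 61 of the 76 tested members other than Rpl12. For the called ones it was on median 0.403 of the way from DMSO replicates 2 and 3 to the iBRD9 mean. That it was within the iBRD9 range for 0 of them follows largely from the call, which favours groups that do not overlap. The share of all tested genes with DMSO replicate 1 placed in these ways was not computed. Without DMSO replicate 1, 53 members were called lower and 9 higher, and the median log2 fold change of the members was -0.35. That fit called 10311 genes in all, beside 8262 in the reported fit, so calls gained without this library were not particular to the members. Leaving out iBRD9 replicate 2 or iBRD9 replicate 3 left 3 higher.

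**Figure D2:**
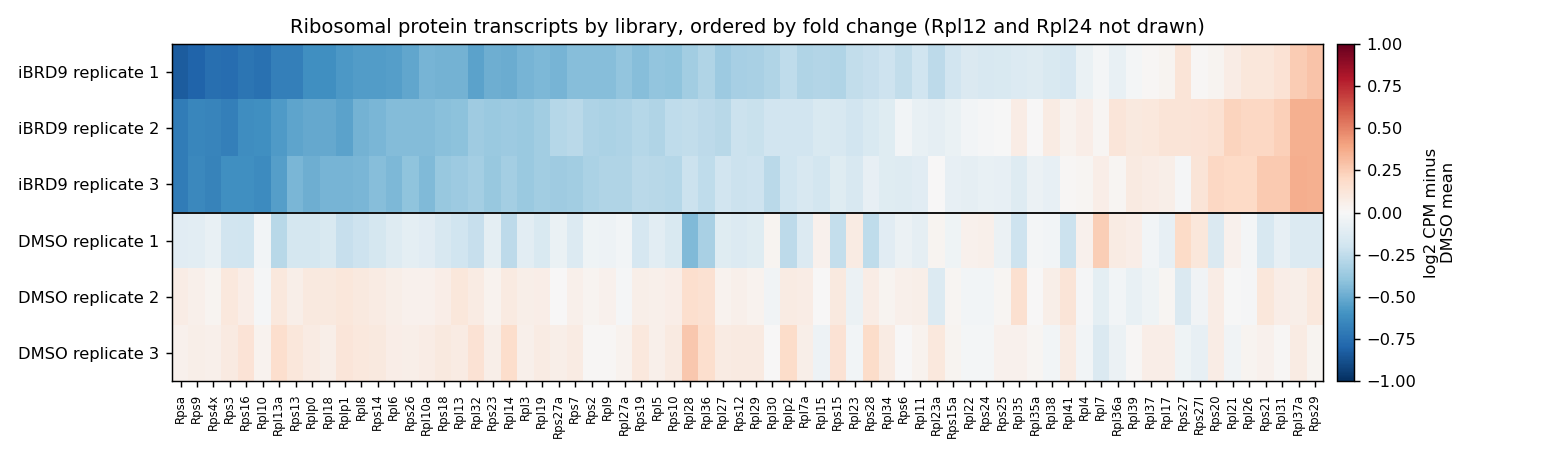
Log2 CPM of the tested ribosomal protein transcripts named in the text other than Rpl12 and Rpl24 in each library minus the mean of the DMSO libraries, with members ordered by fold change and the 3 iBRD9 libraries above the 3 DMSO libraries. The iBRD9 rows are blue over most of the width and red at the right end, and DMSO replicate 1 is paler blue over much of the same width.

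Summed over members, ribosomal protein transcripts took 2.11%, 2.27% and 2.28% of the counts of the iBRD9 libraries, and 2.45%, 2.65% and 2.67% of the DMSO libraries. The highest iBRD9 library was thus below the lowest DMSO library, DMSO replicate 1. The means were 2.22% ± 0.0956 with iBRD9 and 2.59% ± 0.121 with DMSO (SD, n = 3 each), a ratio of 0.857, and the exact two-sided permutation p was 0.1, the smallest that 3 against 3 libraries allow. Small subunit transcripts took 0.846% ± 0.0395 with iBRD9 and 1.02% ± 0.0461 with DMSO, and those of the large subunit without Rpl12 took 1.34% ± 0.0549 with iBRD9 and 1.57% ± 0.0746 with DMSO. Mitochondrial transcripts were a smaller share with iBRD9 as well, 2.77% ± 0.329 against 3.53% ± 0.159 with DMSO. With them taken out of the totals, the members took 2.28% ± 0.0907 with iBRD9 and 2.69% ± 0.121 with DMSO.

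**Figure D3:**
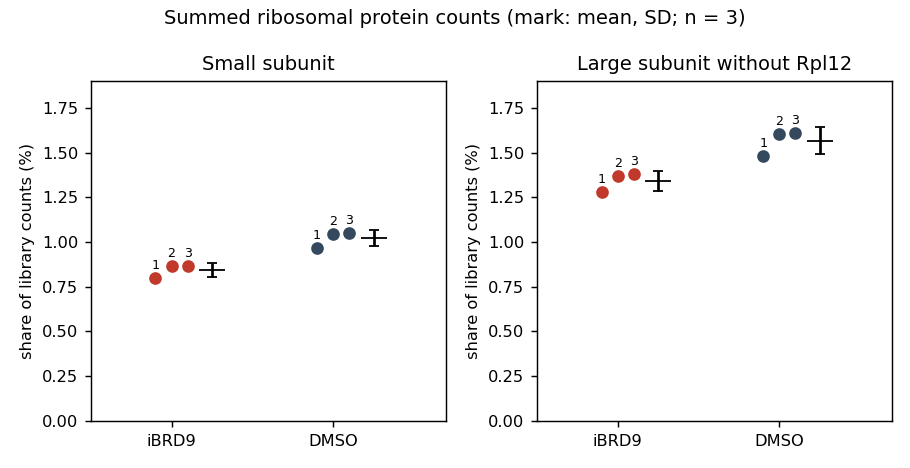
Share of each library's counts taken by small subunit transcripts (left) and by large subunit transcripts without Rpl12 (right), in percent, with 1 numbered point per library and the mean ± SD (n = 3) beside them. In both panels the iBRD9 points lie below the DMSO points, with means of 0.846% with iBRD9 and 1.02% with DMSO for the small subunit.

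Of the 31 tested small subunit members, 19 were lower with iBRD9, 1 was higher and 11 did not pass, and their median log2 fold change was -0.35. Without DMSO replicate 1, 2 were higher. In the reported fit 61.3% of them were lower and 3.23% higher. The abundant genes had 44.3% and 24.0%, and all tested genes 30.9% and 29.8%. Rpsa, a 40S protein also known as a laminin receptor, had the largest fall: 679, 746 and 743 CPM with iBRD9, and 1114, 1272 and 1244 CPM with DMSO. All iBRD9 libraries were thus well below the lowest DMSO library, and the log2 fold change was -0.74 ± 0.073 (SE; adjusted p = 7.77e-05, edgeR). Rps4x, encoded on the X chromosome, was at 207, 222 and 220.3 CPM with iBRD9 and 333, 356 and 362 CPM with DMSO. Its groups were tight and apart, with a log2 fold change of -0.69 ± 0.059 (adjusted p = 3.82e-05). Rps9, which lies near the mRNA entry channel, was at 219 ± 13.1 CPM with iBRD9 and 355 ± 22.6 CPM with DMSO (SD, n = 3 each; log2 fold change -0.70, adjusted p = 8.55e-05).

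Among the 7 members that sit in the 40S head or along the mRNA channel, 4 were lower, 1 was higher and 2 did not pass, with a median of -0.31. That is 57.1% lower and 14.3% higher of a short list, beside 44.3% and 24.0% of the abundant genes. Rps3, which lines the mRNA entry and also acts in DNA repair, was at 297 ± 15.2 CPM with iBRD9 and 479 ± 54.1 CPM with DMSO (log2 fold change -0.69, adjusted p = 0.000291, edgeR). Rps2, its neighbour at the entry, was at 1029 ± 46.9 CPM with iBRD9 and 1312 ± 33.1 CPM with DMSO (-0.35, adjusted p = 0.00139). Rps10, which is ubiquitinated when ribosomes collide, fell by 0.31 on the log2 scale, and Rps19, the gene most often mutated in human Diamond-Blackfan anaemia, fell by 0.33. For Rps15, which lies by the decoding site, the log2 fold change was -0.20 (adjusted p = 0.111), and for Rps20, another head protein, 0.13 (adjusted p = 0.192); the groups of both overlapped. Rps15 was called lower without DMSO replicate 1 (-0.32, adjusted p = 2.71e-06). The 1 riser of this set, Rps29, is described with the other risers.

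The 6 members grouped for regulated or special roles in the 40S subunit held 3 that were lower, Rpsa, Rps14 and Rps26, and 3 that did not pass. That is 50% lower, near the 44.3% of the abundant genes. Rps14, whose loss underlies the anaemia of the human 5q- syndrome, was at 309.7 ± 15.1 CPM with iBRD9 and 434 ± 45.2 CPM with DMSO (log2 fold change -0.49, adjusted p = 0.00128, edgeR). Rps26, which contacts the mRNA as it leaves the ribosome, was at 168 ± 6.93 CPM with iBRD9 and 230.4 ± 13.6 CPM with DMSO (-0.45, adjusted p = 0.000475). Rps6, the substrate of the S6 kinases, was at 231, 269 and 250.5 CPM with iBRD9 and 263, 284 and 275 CPM with DMSO. These values overlapped, and its log2 fold change of -0.13 did not pass (adjusted p = 0.125). Rps25, which some viral mRNAs need in order to recruit the ribosome, had -0.08, and Rps28, near the mRNA exit, had -0.17. Without DMSO replicate 1, Rps6 (-0.17, adjusted p = 0.00568), Rps25 (-0.12, adjusted p = 0.0246) and Rps28 (-0.29, adjusted p = 1.17e-05) were called lower.

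Rps16, whose tail reaches the P-site tRNA, was at 179, 193 and 194 CPM with iBRD9 and 259, 311 and 327 CPM with DMSO. The groups did not overlap, with DMSO replicate 1 the lowest of its group, and the log2 fold change was -0.66 (adjusted p = 0.000379, edgeR). Rps27a is made as a fusion to ubiquitin, which is cut off, so that the gene supplies ubiquitin too. It was at 182 ± 11.3 CPM with iBRD9 and 235 ± 10.5 CPM with DMSO (log2 fold change -0.37, adjusted p = 0.00157). Fau, another ubiquitin-like fusion gene and the source of the 40S protein eS30, was at 185 ± 10.1 CPM with iBRD9 and 254 ± 31.9 CPM with DMSO (-0.45, adjusted p = 0.00339).

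Other small subunit members called lower included Rps13, Rps18, Rps23, Rps7 and Rps12, with log2 fold changes of -0.56 (Rps13) to -0.26 (Rps12). Rps23, a protein of the decoding centre, was at 184 ± 8.32 CPM with iBRD9 and 245 ± 14.8 CPM with DMSO (log2 fold change -0.41, adjusted p = 0.000828, edgeR). Rps24, Rps15a and Rps21 did not pass, with log2 fold changes of -0.08, -0.11 and 0.19 in that order. Rps21, a short 40S protein, was at 79.8, 85.4 and 88.8 CPM with iBRD9 and 66.3, 80.2 and 76.0 CPM with DMSO, so that only DMSO replicate 2 reached the lowest iBRD9 library (adjusted p = 0.0738).

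Of the 46 tested large subunit members, 23 were lower, 5 were higher and 18 did not pass. Their median log2 fold change was -0.22, and -0.23 without Rpl12. Without DMSO replicate 2, 3 were higher, and without iBRD9 replicate 2 or iBRD9 replicate 3, 2 were. In the reported fit, 50% of the large subunit members were lower and 10.9% higher. The abundant genes had 44.3% and 24.0%, and all tested genes 30.9% and 29.8%, so the lower share was near that of the abundant genes. The difference between the medians of the subunits was not tested.

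The P-proteins form the stalk that recruits the translation GTPases, with Rplp0 at its base and Rplp1 and Rplp2 as dimers on it. Rplp0, the most abundant tested member per coding kilobase, was at 1757, 1892 and 1917 CPM with iBRD9, and 2380.2, 2879 and 2853 CPM with DMSO. The groups did not overlap, with DMSO replicate 1 the lowest of its group, and the log2 fold change was -0.54 ± 0.087 (SE; adjusted p = 0.000924, edgeR). Rplp1 was at 624 ± 23.9 CPM with iBRD9 and 902 ± 119.7 CPM with DMSO (-0.53, adjusted p = 0.00173). Rplp2 was at 211, 220.1 and 219 CPM with iBRD9 and 209, 266 and 286 CPM with DMSO. Here DMSO replicate 1 fell below all iBRD9 libraries, and the log2 fold change of -0.23 did not pass (adjusted p = 0.0885). Without that library it was -0.36 (adjusted p = 1.11e-07).

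Of 8 members listed for the 60S core and peptidyl transferase region, 5 were lower, Rpl12 was higher, and Rpl38 and Rpl41 did not pass. The list is wider than its name, since Rpl12 lies at the base of the stalk and Rpl10a on the L1 stalk. Its counts are therefore not a result about the core alone. They come to 62.5% lower and 12.5% higher, beside 44.3% and 24.0% of the abundant genes. Rpl10, which joins the subunit late in its assembly and reaches towards the P site, was at 249, 273 and 269.9 CPM with iBRD9, and 410.1, 415 and 427 CPM with DMSO. The DMSO values were close to each other, replicate 1 included, and all iBRD9 values were far below them (log2 fold change -0.66 ± 0.058, adjusted p = 4.52e-05, edgeR). Rpl3, which lies near the peptidyl transferase centre, was at 519 ± 19.5 CPM with iBRD9 and 686 ± 43.3 CPM with DMSO (-0.40, adjusted p = 0.00103). Rpl8, next to the same centre, fell by 0.50 on the log2 scale, and Rpl10a, the protein of the mobile L1 stalk, by 0.45. Rpl13a, known for its release from the ribosome in human monocytes after interferon-γ, was at 423 ± 21.0 CPM with iBRD9 and 647 ± 103 CPM with DMSO (-0.61, adjusted p = 0.00174). Rpl38, which mouse embryos need for translation of Hox mRNAs, was at 40.5, 47.7 and 42.7 CPM with iBRD9 and 44.3, 46.9 and 44.3 CPM with DMSO, with overlapping groups (-0.05, adjusted p = 0.586). Rpl41, a very short basic protein, had -0.05 as well, and -0.15 without DMSO replicate 1 (adjusted p = 0.0114).

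A list of 10 members at or near the exit tunnel of the nascent chain gave 2 higher, 1 lower and 7 that did not pass, with a median of 0.03. That is 20% higher and 10% lower, beside 24.0% and 44.3% of the abundant genes. Rpl24 stands in this list although it lies at the subunit interface. Rpl4, whose loop narrows the tunnel, was at 566, 622 and 602 CPM with iBRD9, and 609, 589 and 581 CPM with DMSO. All DMSO values lay between the lowest and the highest iBRD9 value, and the log2 fold change was 0.01 ± 0.059 (SE; adjusted p = 0.915, edgeR). Rpl17 and Rpl39, which line or rim the tunnel, had log2 fold changes of 0.07 and 0.06, and Rpl22 had -0.09. Rpl19 was the 1 member of the list called lower, with 372 ± 15.1 CPM with iBRD9 and 486 ± 42.8 CPM with DMSO (-0.38, adjusted p = 0.00254). Rpl23a and Rpl35, the docking proteins for the signal recognition particle, had 24.7 and 22.1 CPM per coding kilobase with iBRD9, far below the median of 431 for the tested members other than Rpl12. They were at 11.6 ± 1.07 and 8.15 ± 0.703 CPM with iBRD9, and 12.5 ± 1.08 and 8.55 ± 1.08 CPM with DMSO. Neither passed.

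Rpl5 and Rpl11 enter the ribosome with the 5S rRNA and, when free, bind MDM2, as Rpl23 also does. Rpl5 was at 551 ± 22.6 CPM with iBRD9 and 692 ± 44.0 CPM with DMSO (log2 fold change -0.33, adjusted p = 0.00318, edgeR). Rpl11 was at 146 ± 6.62 CPM with iBRD9 and 159.6 ± 8.71 CPM with DMSO, with overlapping groups (-0.13, adjusted p = 0.107). Rpl23 was at 199 ± 5.69 CPM with iBRD9 and 229 ± 11.6 CPM with DMSO (-0.20, adjusted p = 0.0166), and this was the smallest fall that passed. It lost the call in 4 of the alternatives, among them those without iBRD9 replicate 1 (adjusted p = 0.0623) and without iBRD9 replicate 2 (0.0562), and its log2 fold change was -0.10 with library size alone. Rpl11 was called lower without DMSO replicate 1 (-0.18, adjusted p = 0.000900).

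Other large subunit members called lower included Rpl18, Rpl6, Rpl13, Rpl32, Rpl14, Rpl9, Rpl27a, Rpl27, Rpl29, Rpl30, Rpl7a and Rpl15, with log2 fold changes of -0.53 (Rpl18) to -0.21 (Rpl15). Rpl6 was at 512 ± 22.6 CPM with iBRD9 and 714 ± 52.4 CPM with DMSO (log2 fold change -0.48, adjusted p = 0.000627, edgeR). Rpl28 was at 185, 198 and 202 CPM with iBRD9 and 173, 264 and 283 CPM with DMSO, and Rpl36 at 86.8, 89.2 and 89.7 CPM with iBRD9 and 85.6, 119 and 120.0 CPM with DMSO. In both, DMSO replicate 1 lay below all iBRD9 libraries while DMSO replicates 2 and 3 lay above them, and neither passed (-0.30, adjusted p = 0.132 and -0.29, adjusted p = 0.0653). Rpl34 (-0.15), Rpl35a (-0.06) and Rpl37 (0.06) did not pass either.

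Apart from Rpl12, 5 members rose: Rps29, Rpl37a, Rpl31, Rpl26 and Rpl21. Rps29, a small zinc-binding protein of the 40S head, was at 58.3, 61.4 and 61.4 CPM with iBRD9, and 43.7, 51.7 and 48.8 CPM with DMSO. Every iBRD9 library was above every DMSO library, and the log2 fold change was 0.33 ± 0.075 (SE; adjusted p = 0.00536, edgeR). Rpl37a, a small zinc-binding protein of the 60S subunit, was at 139, 149 and 149.6 CPM with iBRD9, and 106, 121 and 123 CPM with DMSO (0.32 ± 0.072, adjusted p = 0.00488). Both were called in all 15 fits, the reported one included, as were 36 of the members called lower. Rpl31 (0.22, adjusted p = 0.0159) and Rpl26 (0.17, adjusted p = 0.0199), both at the rim of the exit tunnel, and Rpl21 (0.17, adjusted p = 0.0368), another 60S protein, lost the call in 3, 5 and 7 of the alternatives, in that order.

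**Figure D4:**
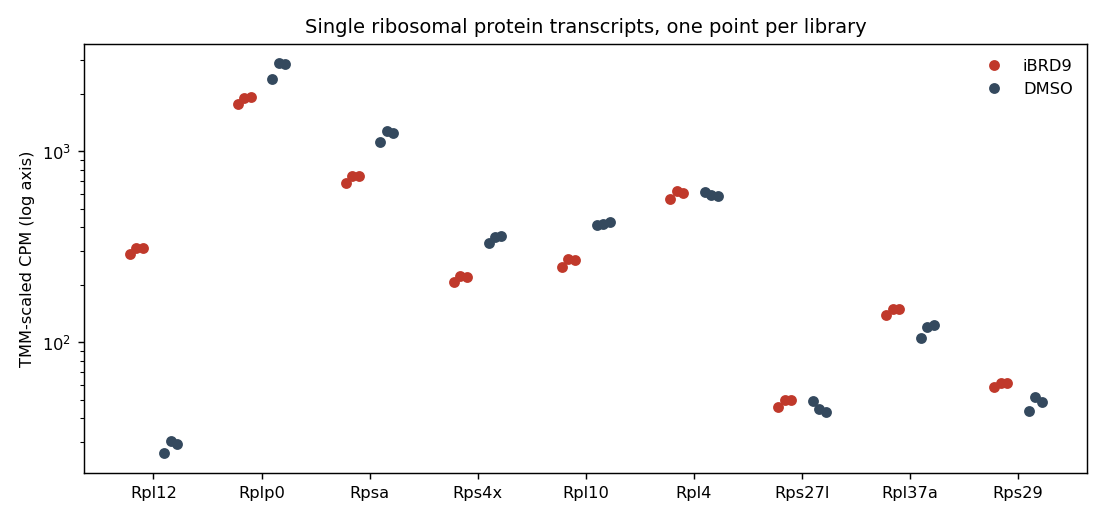
TMM-scaled CPM on a log axis for 9 ribosomal protein transcripts, 1 point per library, iBRD9 left of DMSO for each gene. Rpl12 lies about a decade higher with iBRD9, Rplp0 to Rpl10 are lower, Rpl4 and Rps27l overlap, and Rpl37a and Rps29 are slightly higher.

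Rpl12 (ENSMUSG00000038900) was 10.6-fold higher with iBRD9. Its protein sits at the base of the stalk beside Rplp0, on the surface where elongation factors bind. It was at 289, 312 and 310.2 CPM with iBRD9, from 8891, 7791 and 7348 counts, and at 26.3, 30.4 and 29.5 CPM with DMSO, from 605, 772 and 699 counts. DMSO replicate 1 was close to the other DMSO libraries, and the lowest iBRD9 value was several times the highest DMSO value. The log2 fold change was 3.40 ± 0.076 (SE; adjusted p = 1.44e-07, edgeR), with 3.33 to 3.51 over the alternatives.

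Of all 13602 tested genes, 51, with Rpl12 among them, had a log2 fold change at least as large. Among the 1996 genes with an average log2 CPM of 7 or more there were 2, Rpl12 and Hsp90aa1, a cytosolic chaperone singled out after its values were seen, at 802 ± 56.2 CPM with iBRD9 and 29.7 ± 3.30 CPM with DMSO. Per kilobase of coding sequence, Rpl12 had 613 CPM with iBRD9 and 58.0 CPM with DMSO, while the median of the other tested members was 431 with iBRD9 and 545 with DMSO. It ranked 18 of 77 members with iBRD9 and 73 of 77 with DMSO, counted from the highest. With DMSO it was thus one of the least abundant members per length, and with iBRD9 it lay among the more abundant ones. Of the copies named as Rpl12 pseudogenes, Rpl12-ps1 held 1 count in all libraries together and Rpl12-ps2 held 0.

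The nearest neighbours of Rpl12 in RefSeq's gene order were not called. Lrsam1, a ubiquitin ligase gene on one side, was at 21.0 ± 1.31 CPM with iBRD9 and 20.5 ± 1.93 CPM with DMSO (log2 fold change 0.03, adjusted p = 0.774, edgeR). Slc2a8, a glucose transporter gene on the other, was at 19.4 ± 0.962 CPM with iBRD9 and 20.2 ± 1.67 CPM with DMSO (-0.05, adjusted p = 0.617). Garnl3, the next gene beyond Slc2a8, was at 19.1 ± 0.809 CPM with iBRD9 and 8.14 ± 0.401 CPM with DMSO (1.23, adjusted p = 1.83e-05).

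The 250 bases upstream of the annotated start are shown for the member that rose most, the member that fell most and a member with a small rise, so that the starts of genes with unlike changes can be set side by side. They are RefSeq sequences of build GRCm38.p6, an older build than the one the submitters named, and all lie on the + strand: Rpl12 at chr2:32961462-32961711, Rpsa at chr9:120127516-120127765 and Rpl37a at chr1:72711010-72711259. Capitals mark matches to the motifs searched.
Rpl12: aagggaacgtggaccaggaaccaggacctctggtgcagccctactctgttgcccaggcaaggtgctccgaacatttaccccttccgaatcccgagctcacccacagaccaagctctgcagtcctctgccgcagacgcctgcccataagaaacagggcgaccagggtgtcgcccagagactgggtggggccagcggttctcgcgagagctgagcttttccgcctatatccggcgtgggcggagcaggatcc
Rpsa: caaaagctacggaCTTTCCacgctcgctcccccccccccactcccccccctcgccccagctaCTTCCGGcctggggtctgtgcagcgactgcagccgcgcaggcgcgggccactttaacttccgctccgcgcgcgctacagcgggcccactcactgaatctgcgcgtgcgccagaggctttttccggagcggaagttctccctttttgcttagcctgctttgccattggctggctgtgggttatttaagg
Rpl37a: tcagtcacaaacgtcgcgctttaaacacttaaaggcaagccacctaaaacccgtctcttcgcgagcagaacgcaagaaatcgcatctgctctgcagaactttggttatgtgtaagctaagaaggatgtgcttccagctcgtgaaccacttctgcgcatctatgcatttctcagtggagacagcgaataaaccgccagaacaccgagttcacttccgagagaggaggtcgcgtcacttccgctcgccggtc
The motifs, searched on both strands in windows of 250 bases before to 50 after each start, were CCGGAAG for the ETS family, AAGATGG for YY1, TATAAA for the TATA box and CTTTCC for a pyrimidine run, and none of these contains another. In the bases printed, Rpsa holds CTTTCC on the + strand and the ETS motif on the other strand, where it reads CTTCCGG, and Rpl12 and Rpl37a hold none of the motifs.

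A window was at hand for 60 members, 72 windows in all with alternative starts, and for 32851 windows over all genes. The ETS motif was in 36.1% of the members' windows and in 8.86% of all windows, YY1 in 15.3% and 6.34%, the pyrimidine run in 36 of the 72 and in 26.6%, and TATA in 8.33% and 13.6%. Median GC was 57.8% in the members' windows and 52.7% in all. The ETS motif was near the start of 10 of 30 members called lower, 2 of 4 called higher and 12 of 23 not called, so that members with and without it stood in each class. These matches describe letters in a window and are not evidence of binding.

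Among the members, longer coding sequences went with larger falls. The 9 members other than Rpl12 with under 300 coding bases had a median log2 fold change of 0.06, with 2 called higher and 0 lower. From 300 to 450 bases the median was -0.20 (27 members, 2 higher and 10 lower), and from 450 to 600 it was -0.35 (17 members, 1 higher and 12 lower). From 600 to 900 bases it was -0.45 (19 members, 0 higher and 17 lower), and the 4 members of 900 or more had -0.38 with 3 lower. Spearman's rho between log2 fold change and coding length was -0.54 over 76 members, -0.69 over 31 of the small and -0.48 over 45 of the large subunit. These values come from the same 6 libraries, so the members are not independent points.

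The other tested genes had medians of 0.04, -0.03, -0.15, -0.14 and 0.01 in the same 5 bands of length, with a rho of 0.12 over 12070 genes. Of these genes 9043 had 900 or more coding bases, as only 4 of the 76 members had, so the rho values cover unlike ranges of length. Below 900 bases the medians of the other genes were also lower in the longer bands, though by less than those of the members. In the members, the fold change also had a rho of -0.57 with mean log2 CPM and of -0.36 with the GC content of the transcript. Between DMSO libraries, the log2 ratio of replicate 1 to replicates 2 and 3 had a rho of -0.05 with coding length. That value rests on 1 outlying library and does not describe differences between the groups. Without DMSO replicate 1 the rho between fold change and length was -0.50. The part of transcript length, level and GC in the members' changes was not tested.

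**Figure D5:**
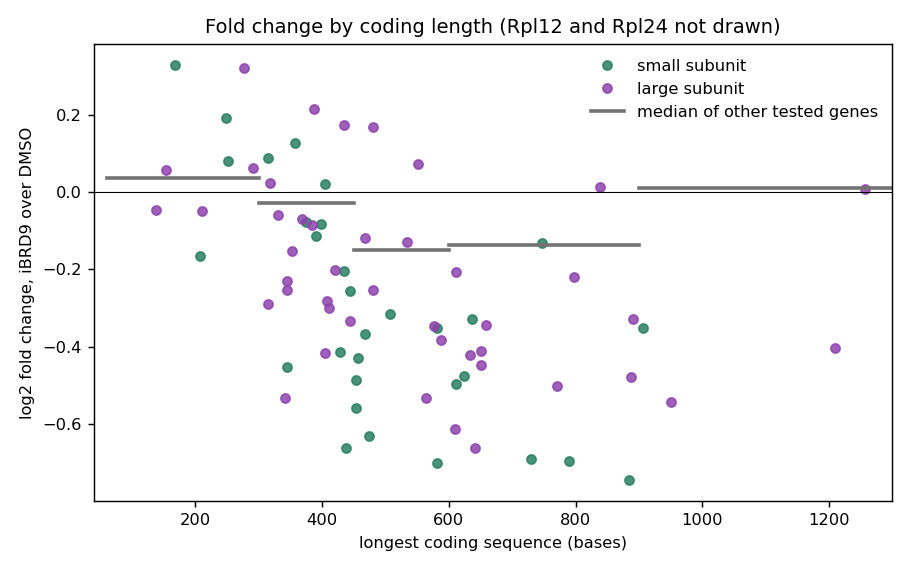
Log2 fold change (iBRD9 over DMSO) against the length of the longest annotated coding sequence in bases, 1 point per tested member other than Rpl12 and Rpl24, with grey lines for the median of other tested genes in each band of length. Members under 300 bases lie around 0 and those of 600 to 900 bases around -0.45, while the grey lines stay between -0.15 and 0.04.

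Of the 5 members that were not tested, Rpl10l and Rpl39l, copies known for expression in the testis, were at 0 in every library, and Rpl3l, the striated muscle copy of Rpl3, reached 0.337 CPM at most. Rpl6l and Rps4l stayed at 0.0434 CPM or below. Rpl24 passed the filter with 14, 12 and 19 counts with iBRD9 and 13, 7 and 2 with DMSO, and its log2 fold change of 0.89 had a standard error of 0.543 (adjusted p = 0.184, edgeR). Its groups overlapped, and at this depth the value moved to 1.60 (adjusted p = 0.0114) without DMSO replicate 1. Ribosomal protein genes have many processed pseudogenes. The 249 table entries named as such by -ps in the symbol held 0.00856% ± 0.000315 of counts with iBRD9 and 0.0104% ± 0.000160 with DMSO. Copies under other names, such as the retrogene Rps27rt described below, are outside this sum, which is therefore not the whole of such reads. How the counting treated reads shared with copies is not given in the sources used here. Low values such as those of Rpl24, Rpl35 and Rpl23a are thus uncertain.

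Related copies were set side by side. Rps27 was at 9.29 ± 0.517 CPM with iBRD9 and 8.81 ± 1.06 CPM with DMSO (log2 fold change 0.08, adjusted p = 0.574, edgeR), and its p53-induced relative Rps27l at 48.8 ± 2.35 CPM with iBRD9 and 45.8 ± 3.24 CPM with DMSO (0.09, adjusted p = 0.322). Rps27rt, a retrogene copy of Rps27 that was looked at after its values were seen, was at 89.3 ± 3.79 CPM with iBRD9 and 89.4 ± 1.92 CPM with DMSO. Reads of Rps27 and Rps27rt may be split between them, and their sum was 98.6 ± 3.91 CPM with iBRD9 and 98.2 ± 2.19 CPM with DMSO.

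Rpl22l1, a relative of Rpl22 that can take its place in the ribosome, was at 11.8, 10.4 and 13.1 CPM with iBRD9 and 13.9, 22.8 and 23.2 CPM with DMSO. DMSO replicate 1 lay near the iBRD9 values, and the log2 fold change was -0.77 (adjusted p = 0.00807, edgeR), beside -0.09 for Rpl22 (adjusted p = 0.208). Rpl7l1 fell (-0.37, adjusted p = 0.0057), and Rpl7 was at 511 ± 15.0 CPM with iBRD9 and 507 ± 78.1 CPM with DMSO (0.01). Rpl36al had 0.26 (adjusted p = 0.0601), which passed in 5 of the alternatives, the one without DMSO replicate 1 included (0.39, adjusted p = 6.02e-07), and Rpl36a 0.02 (adjusted p = 0.789). Rpl7 (0.14, adjusted p = 0.00665) and Rps27l (0.14, adjusted p = 0.0325) were called higher without DMSO replicate 1. Differences between copies were not tested.

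Of the ribosomal proteins whose symbols the rule does not take, 5 of 7 tested were lower and 0 higher, with a median of -0.37 (2 higher without DMSO replicate 1). In the reported fit 71.4% of this short list were lower, beside 44.3% of the abundant genes. Rps3a1, a 40S protein near the mRNA exit, was at 377 ± 8.65 CPM with iBRD9 and 487 ± 18.6 CPM with DMSO (log2 fold change -0.37, adjusted p = 0.000671, edgeR). Rack1, a signalling scaffold on the 40S head, was at 519, 543 and 551 CPM with iBRD9 and 729, 918 and 941 CPM with DMSO. Its groups were apart, and the log2 fold change was -0.68 (adjusted p = 0.000495).

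Other parts of the translation machinery were described from lists by function. Over those lists together 77 of 150 tested genes were lower and 24 higher, with a median of -0.20. That is 51.3% lower, beside 30.9% of all tested genes and 44.3% of the abundant ones, and 16% higher, beside 29.8% and 24.0%. Of 11 tested genes listed as elongation factors, 9 were lower and 0 higher (median -0.58). Once DMSO replicate 1 was left out, 1 was higher. In the reported fit 81.8% of this short list were lower, beside 44.3% of the abundant genes. Among the lower ones the list counts Eef2k, Eef1e1 and Tpt1, which are not elongation factors themselves. Its counts are therefore not a result about elongation factors alone. Eef1a1, which brings aminoacyl-tRNA to the ribosome, was at 5248 ± 247 CPM with iBRD9 and 7379 ± 417 CPM with DMSO (log2 fold change -0.49, adjusted p = 0.000698, edgeR). Eef1g, a subunit of the exchange factor for Eef1a1, fell by 0.91 on the log2 scale, and Eef2, the translocase, by 0.35. Eef2k, the kinase that inhibits Eef2, was at 32.9 ± 3.27 CPM with iBRD9 and 189 ± 43.1 CPM with DMSO (-2.52, adjusted p = 1.34e-05).

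Initiation factors gave 21 lower and 5 higher of 37 (median -0.28), with 3 higher when DMSO replicate 2 or any 1 of the iBRD9 libraries was left out. In the reported fit that is 56.8% lower and 13.5% higher, beside 44.3% and 24.0% of the abundant genes. Eif3c, a core subunit of the eIF3 complex, was at 428 ± 9.04 CPM with iBRD9 and 1092 ± 267 CPM with DMSO (log2 fold change -1.35, adjusted p = 0.000208, edgeR), and Eif6, which keeps free 60S subunits from joining, fell by 0.93. The helicase gene Eif4a2 (0.57) and the scaffold gene Eif4g3 (0.47) were higher, and Eif4a2 lost the call with no filter on low counts (adjusted p = 0.110) and at an adjusted p under 0.01. Genes of mTOR signalling and TOP mRNA control gave 9 lower and 8 higher of 24 (median -0.03), which is 37.5% and 33.3%, near the shares over all tested genes. The count of higher ones was 4 without DMSO replicate 2, iBRD9 replicate 1 or iBRD9 replicate 3, and 5 without DMSO replicate 3. Eif4ebp1, an mTOR target that inhibits translation initiation, was at 48.8, 32.3 and 31.3 CPM with iBRD9 and 135, 244 and 258 CPM with DMSO. Its groups were apart, with DMSO replicate 1 the lowest of its group (-2.50, adjusted p = 0.00011). Sesn2, an inhibitor of mTOR complex 1, fell by 2.36 on the log2 scale, while Pdcd4, an inhibitor of eIF4A, rose by 1.02 and Castor2, of the CASTOR family that relays arginine to mTOR complex 1, by 0.67.

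Chaperones and importers of ribosomal proteins gave 8 lower and 1 higher of 17 (median -0.17). That is 47.1% and 5.88%, beside 44.3% and 24.0% of the abundant genes. The importin gene Ipo5 fell by 0.62 and the 40S assembly gene Ltv1 by 0.60, and Heatr3, which serves the import of Rpl5, rose by 0.54. RNA polymerase I and III genes gave 12 lower and 7 higher of 29 (median -0.14), which is 41.4% and 24.1%, near the shares over abundant genes. Gtf3a, the 5S rRNA gene factor TFIIIA, fell by 0.64 and Taf1b, a subunit of the polymerase I factor SL1, by 0.63. Polr3g, a polymerase III subunit gene, rose by 0.90 and Taf1a, another SL1 subunit gene, by 0.77. Of 15 tested genes listed for ribosome stress or its link to p53, 7 were lower and 2 higher (median -0.10), which is 46.7% and 13.3%. The list also holds genes of ribosome maturation and of stalled ribosomes, so its counts are not about p53 alone. The lower shares of this list and of the chaperone list were near that of the abundant genes. Cdkn1a, the p53 target p21, was at 15.7 ± 0.727 CPM with iBRD9 and 38.2 ± 9.63 CPM with DMSO (log2 fold change -1.28, adjusted p = 0.000401, edgeR). Zfp622, a 60S maturation factor gene, fell by 0.87, and Eif2ak4, the kinase GCN2, rose by 0.60 and Nemf, which acts on stalled 60S subunits, by 0.39. Recycling and dormancy genes gave 7 lower and 1 higher of 11 (median -0.39), which is 63.6% and 9.09%. Without DMSO replicate 1, the chaperone and recycling lists each had 2 higher and the stress list 5. The release factor gene Gspt1 fell by 0.61 and the recycling gene Abce1 by 0.59, while Habp4, whose protein binds idle ribosomes, rose by 0.98.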

How the data were processed

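Poly(A) RNA from 6 Melb-a samples, 3 with iBRD9 and 3 with DMSO, was sequenced from random-hexamer libraries, per the labels' protocols. The deposited table holds the read counts that the authors made for each Ensembl gene ID. CASAVA 1.8.2, Bowtie2 2.4.5 and the build GRCm39 stand in the submitters' processing notes, while for the counting program, annotation and strand setting nothing is given in the sources used here, so that reads of overlapping or antisense genes cannot be told apart. All count columns were used (0 left out). Of 35275 gene IDs, 34490 matched a symbol. The members and all gene lists were chosen with earlier results of these data known.

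Genes passing edgeR's filterByExpr with a minimum count of 10 were tested (13602) after TMM scaling (trimmed mean of M values), with the quasi-likelihood test of edgeR 4.0.16 in R 4.3.3, treatment as the only term, and Benjamini-Hochberg adjustment over all tested genes. Genes with an adjusted p under 0.05 count as called. Standard errors (SE) were derived from the quasi-likelihood test, as the absolute log2 fold change divided by the square root of its F. CPM are TMM-scaled, and the biological coefficient of variation was 0.0921. All tests are two-sided. The procedure was tried on simulated counts with few genes changed and no deviating library. That setting is unlike these data, so its error rates for them were not tested. No replicate pair was a duplicate (chi-square per degree of freedom at least 1.93). Depth ran from 22846391 to 29680952 counts.

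Named genes are Rpl12, up to 8 largest rises and 8 largest falls among called members, related copies, role-list members, ribosomal proteins outside the symbol rule and, per other list, up to 2 higher and 2 lower called genes, each ranked at a mean log2 CPM of at least 1. Other genes were named after their values were seen: other members, Brd9, Hsp90aa1, the neighbours and pseudogenes of Rpl12, Rps27rt, Krt5, Krt1, Ptprc, Cd3e, Tyrp1, Mlana, Eef1a1, Eef2, Eef1e1 and Tpt1. Coding lengths are the longest annotated coding sequence of GENCODE. Alternatives were DESeq2 1.42.0 (its size factors and its Wald test), library size alone, TMM without the members, limma-voom (limma 3.58.1), other filters, an adjusted p under 0.01, a block for the replicate number, and each library left out. A few genes that these rules take are not reported here.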

Additional observations from a re-analysis of the deposited data

How the results depend on the processing

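Under DESeq2, limma-voom, DESeq2's size factors and TMM without the members, 6 members were higher and 42 lower, as reported. Scaling by library size alone shifted the median of all tested genes by 0.106 on the log2 scale: 10 members were then higher and 37 lower, medians were -0.15 for members, -0.24 and -0.12 for the small and large subunit and -0.10 for the translation lists, 3 small subunit members were higher, and Rpl22 (0.019), Rps25 (0.028), Rpl35 (0.037), Rpl38 (0.056) and Rpl41 (0.062), none of them called, changed sign. With no filter 3 large subunit members were higher, and with at least 1 CPM in 3 libraries 2 small subunit members were. At an adjusted p under 0.01, 3 members, 2 of them large subunit members, and 15 genes of the translation lists were higher.

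Same-numbered libraries of the groups had correlations of their deviations of 0.118, 0.0599 and 0.0248, so the numbers were not taken as pairs; with the replicate block, 6 members were higher and 43 lower, with 2 of the small subunit higher. Every library correlated best with its own number except replicate 3 of iBRD9 and replicate 3 of DMSO, whose best partners were replicate 2 of the other group.

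Leaving out each library in turn gave 3 to 9 members higher and 36 to 53 lower with medians of -0.35 to -0.22, small subunit counts of 1 to 2 higher and 18 to 24 lower, and large subunit counts of 2 to 7 higher and 18 to 29 lower. Values near 0 that were not called in the reported fit changed sign for some left-out libraries, with ranges of -0.067 to 0.14 for Rpl7, -0.024 to 0.042 for Rpl4, -0.028 to 0.068 for Rpl36a, -0.18 to 0.0054 for Rpl35 and -0.15 to 0.013 for Rpl41. At the ends of these ranges, without DMSO replicate 1, Rpl7 (adjusted p = 0.00665) and Rpl41 (adjusted p = 0.0114) passed. The cause of these changes was not tested. Over 87 named genes, 1247 values under the alternatives kept direction and call, 21 lost the call, 19 gained it and 17 changed sign. Depth limits Rpl24 and the members at or near 0.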
